A study of Mus musculus with 12 samples.

Results

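The ribosomal protein genes are the genes for the proteins of the cytoplasmic ribosome, the particle that makes all cellular proteins. They were taken here as the 87 gene symbols that start with Rpl or Rps and a digit, or are Rplp0, Rplp1, Rplp2 or Rpsa, without pseudogene symbols containing -ps, without the kinases named Rps6k and without Rps19bp1. Of these, 79 reached at least 1 CPM (the reads of a gene scaled to the total of its library) in at least 2 libraries, out of 24421 genes listed. They comprise 40 large subunit genes, 30 small subunit genes, the 3 stalk genes Rplp0, Rplp1 and Rplp2, 5 paralogs (Rpl22l1, Rpl36al, Rpl7l1, Rps27l and Rps4l) and Rpl37rt. Of these, Rps4l and Rpl37rt are annotated as transcribed processed pseudogenes.

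As background, the small subunit decodes the mRNA and the large subunit joins amino acids, and the stalk of the large subunit recruits the elongation factors. Ribosomal protein mRNAs belong to the TOP mRNAs, which begin with a C followed by a run of pyrimidines, and their translation is controlled together by mTOR signaling. Ribosome production rises in cells that grow or divide.

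The libraries are RNA-seq of bone marrow-derived macrophages (BMMs), the cultured precursors of bone-resorbing osteoclasts, from mice described as C57BL/6. All mice were described as carrying LysMcre(+), a Cre driven by the lysozyme M promoter of myeloid cells. The age was not given in the sources used here. The loss of function experiment compared WT (Mir182+/+LysMcre(+)) with Mir182ΔM/ΔM cells (Mir182flox/floxLysMcre(+), with miR-182 deleted in myeloid cells), each after 3 days of M-CSF, either basal or after 5 further days of RANKL, the cytokine that induces osteoclasts. The gain of function experiment compared Control (LysMcre(+)) with Mir182mTg cells (LSL-Mir182LysMcre(+), where Cre switches on Mir182 placed in the Rosa26 locus), both basal. The paper's legend gives 5 days both with and without RANKL, whereas the sample descriptions give the basal cells only the 3 days of M-CSF. Whether basal and RANKL cells had equal time in culture could not be settled here. The part of culture time in the RANKL differences was not tested. Each of the 6 conditions had 2 replicates, 12 libraries in all. In the plots Mir182ΔM/ΔM is written KO and Mir182mTg is written mTg.

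Reads on genes ranged from 24951280 to 33050619 per library, and 3 reads equal 0.0908 to 0.120 CPM. The 6 macrophage markers summed to 5620 to 8475 CPM in every library, and the 8 osteoclast markers to 116 to 168 CPM in basal libraries, 10549 to 10762 CPM in WT after RANKL and 3155 to 3183 CPM in Mir182ΔM/ΔM after RANKL. Markers of other cell types (17 of 18 found) summed to 35.6 to 100.2 CPM, and Hbb-b1 and Hba-a1 were at 0. Mir182 itself was at 2.39 and 4.40 CPM in Mir182mTg and at 0 or 0.0370 CPM elsewhere, so the deletion could not be checked. In the WT libraries after RANKL, 2 genes checked by name were unlike the rest of that experiment, and no search for others was made. In these libraries Lyz2, the lysozyme M gene, was at 4117 and 4288 CPM. It was at 22.5 to 44.0 CPM in WT basal and both Mir182ΔM/ΔM conditions. Ifi202b was at 0.972 and 1.12 CPM in these WT libraries, against 82.1 to 152 CPM in those conditions. Control and Mir182mTg had 5783 to 7062 CPM of Lyz2 and at most 0.0908 CPM of Ifi202b, like the WT libraries after RANKL. The part of this difference in the results that use these WT libraries was not tested.

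Replicate 1 and replicate 2 were processed with different aligners and are labelled as polyA RNA and total RNA, with the same poly-A+ protocol given for both, and Rn45s, the ribosomal RNA precursor, was 10.8 to 18.8 times higher in replicate 2. In this bulk RNA, fewer cells of a type and less RNA per cell cannot be told apart.

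The sequences that frame the comparisons are the microRNA and the transcript starts. Mature miR-182-5p is encoded at chr6:30165962-30165986 on the minus strand (GRCm38.p6, RefSeq), and its seed, bases 2 to 8, is in capitals.
mmu-miR-182-5p: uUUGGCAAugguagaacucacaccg
Starts of 59 of the 79 genes were in the RefSeq promoter table of the same build. A C followed by at least 7 pyrimidines, written 5′ to 3′ on the transcript's strand, lay within 30 bases of an annotated start in 31 of 59 genes (52.5%), against 20.6% of all 27025 genes in the table. On the opposite strand the shares were 11.9% and 23.4%. The windows below run from 15 bases before the start to the 15th transcribed base, with the longest such run in capitals, and are shown for Rpl14 and Rps6, which were among the largest increases after RANKL, for the stalk gene Rplp2, and for Rpl22l1 and Rps2, which had a pattern of their own.
Rpl14, chr9:120571502-120571531, plus strand: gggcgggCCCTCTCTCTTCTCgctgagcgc
Rps6, chr4:86857353-86857382, minus strand: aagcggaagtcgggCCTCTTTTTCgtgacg
Rplp2, chr7:141447636-141447665, plus strand: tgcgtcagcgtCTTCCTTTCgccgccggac
Rpl22l1, chr3:28805493-28805522, plus strand: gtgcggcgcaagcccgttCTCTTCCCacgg
Rps2, chr17:24720048-24720077, plus strand: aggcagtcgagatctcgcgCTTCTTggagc
The run was 14 bases in Rpl14, 10 in Rps6, 9 in Rplp2, 8 in Rpl22l1 and 6 in Rps2, so Rps2 did not meet the rule at this start. Each of the starts shown lies inside its annotated gene. A match of letters is a description and does not show that the start is used.

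Matches to the miR-182 seed were rare in these genes, whose 3′ UTRs are short. The letters TTGCCAA (pairing with bases 2 to 8) or TGCCAAA (bases 2 to 7 followed by A) occurred on the transcript's strand in an annotated 3′ UTR of 5 of 77 genes (6.49%), against 21.1% of 11003 genes at 1 CPM or more. The longest annotated 3′ UTR had a median of 160 bases in the ribosomal protein genes and 1189 bases in all genes. Among all genes with 160 bases or fewer 1.52% had a match, and among those with 4728 bases or fewer 18.8% had. The 5 ribosomal protein genes with a match had 3′ UTRs of 578 to 4728 bases, so none of them had 160 bases or fewer. The 5 matches, in capitals, are shown as the seed matches found in these transcripts (GENCODE vM21, GRCm38).
Rpl31, chr1:39371792-39371818, plus strand: ccagccatctTTGCCAAccagtagctc
Rpl9, chr5:65389864-65389890, minus strand: agatgcctaaTGCCAAAaatgaggatc
Rpl7l1, chr17:46774463-46774489, minus strand: tgtgagtacaTGCCAAAgtagccagga
Rps15a, chr7:118108832-118108858, minus strand: tctggtttatTTGCCAAtgagaagcac
Rps20, chr4:3831452-3831478, minus strand: aagccatttgTTGCCAAtcctaacagc
Rps2 and Rps3a1, the genes that were lowest in Mir182mTg against Control, had no match in their 3′ UTRs.

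Levels were compared between genes per length, as CPM per kilobase of the length used in the deposited RPKM. Averaged over the 12 libraries, Rplp1 had the highest level at 1099 CPM per kilobase, followed by Rpl8 at 756 and Rpl4 at 745, both large subunit proteins. The lowest were Rpl21 at 2.64, Rps4l, annotated as a transcribed processed pseudogene, at 2.94, and Rpl29 at 18.8 CPM per kilobase. The median over the 79 genes was 188 CPM per kilobase. Between 0 and 81.1% of the 50-base words of a gene's transcripts occurred in transcripts of other genes (median 20.9%), and the share was 50% or more in 6 genes, among them Rplp1 (60.0%), Rps3a1 (71.0%) and Rpl23a (50.1%). The share was 43.0% in Rps2. The level of such genes is uncertain where reads could be split among copies.

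The other 8 symbols stayed below the level rule. Rpl10l, Rpl26 and Rps27rt were listed at 0 in all 12 libraries, and Rpl30, Rpl34, Rps27, Rpl39l and Rpl3l stayed below 1 CPM, the highest being Rps27 at 0.755 CPM. Rpl26, Rpl30, Rpl34 and Rps27 encode proteins of every ribosome, so their listed values are given as values of the table only. A pseudogene row, Rpl14-ps1, was at 78.5 to 206 CPM.

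Together, the 79 genes took 1.16% and 1.28% of the reads in WT basal, and 2.04% and 2.29% in WT after RANKL. Mir182ΔM/ΔM cells had 1.06% and 1.14% basal, and 1.49% and 1.64% after RANKL. In Control the share was 1.30% and 1.46%, and in Mir182mTg 1.30% and 1.39%. The RANKL libraries lay above the basal libraries in each genotype, and Control and Mir182mTg overlapped. RANKL against basal was 1.77-fold in WT and 1.42-fold in Mir182ΔM/ΔM, and Mir182ΔM/ΔM against WT was 0.901-fold basal and 0.723-fold after RANKL. Large and small subunit genes kept similar ratios, at 1.79-fold and 1.75-fold for RANKL in WT, and 1.43-fold and 1.41-fold in Mir182ΔM/ΔM. No test was applied to shares.

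**Figure D1:**
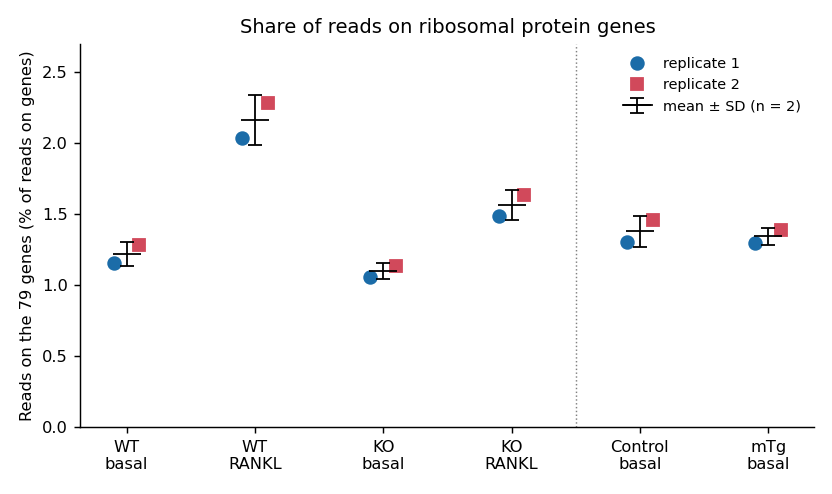
Share of reads on the 79 ribosomal protein genes (percent of reads on genes) in each library of the 6 conditions, with replicate 1 as circles, replicate 2 as squares and the mean with the SD of 2 replicates in black. WT after RANKL had 2.04% and 2.29%, the highest of all, and Control and Mir182mTg overlapped.

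Replicate 2 gave higher values than replicate 1 in all 6 conditions for 49 genes and lower values in all 6 for 18 genes. For the other 12 genes the direction differed between conditions. Rpl39 had a ratio of 2.49 to 2.96 and Rpl22l1 of 2.13 to 2.30, both among the 3 highest medians. Rpl41, the shortest ribosomal protein, had 0.505 to 0.571, followed from below by Rpl35 (0.575 to 0.666) and Rpl28 (0.629 to 0.689). In the WT response to RANKL, the median standard error of the log2 difference was 0.138 for the genes that passed the threshold and 0.362 for those that did not, and it was 0.0382 over all 79 when the replicate number was a block.

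The ribosomal protein genes were higher after RANKL in WT cells across both subunits and the stalk. The WT libraries after RANKL also differed from WT basal in Lyz2 and Ifi202b, and the part of that difference was not tested. Of the 79 genes, 58 rose and 0 fell at an adjusted p under 0.05 (limma), where 40.6% of all 11691 genes tested rose and 22.0% fell, and 61 of the 79 had an unadjusted p under 0.05. With the replicate block 78 rose and 0 fell, against 52.8% and 29.0% of all genes. The median log2 difference was 0.79 over the 79 genes and 0.19 over all genes. With TMM factors, which set that median of all genes near 0 (-0.01), the median of the 79 genes was 0.58, with 43 higher and 1 lower (28.7% and 30.5% of all genes). With edgeR on the recovered reads the counts were also 43 and 1 (28.1% and 29.2%). By group, 32 of 40 large subunit genes, 21 of 30 small subunit genes, 3 of 3 stalk genes, 1 of 5 paralogs and Rpl37rt rose.

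Rpl4, a large subunit protein with the most reads of the 79, was at 825 and 753 CPM basal and at 1723 and 1662 CPM after RANKL in WT. The groups were far apart, with a log2 difference of 1.10 ± 0.07 (SE, adjusted p = 1.27e-05, limma). Rplp0, the stalk protein often used as a reference gene in quantitative PCR, went from 321 and 460 to 699 and 993 CPM, a log2 difference of 1.11 ± 0.27 (adjusted p = 0.00895, limma). Rps6, the small subunit protein phosphorylated by S6 kinase, went from 99.5 and 86.6 to 215 and 182 CPM (1.08 ± 0.11, adjusted p = 0.000105, limma).

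The largest increases without overlap were those of Rpl29, Rpl23a and Rpl14. Rpl29 was at 5.01 and 10.9 CPM basal and at 16.6 and 32.3 CPM after RANKL. Its log2 difference of 1.52 ± 0.50 passed the threshold (adjusted p = 0.0322, limma) but not with TMM factors (0.0582) or without WT basal replicate 1 or WT RANKL replicate 2 (0.162 each), and the basal Control libraries were at 11.4 and 22.9 CPM. Rpl23a, which lies near the exit tunnel of the large subunit, rose from 41.4 and 38.2 to 96.9 and 94.7 CPM (1.25 ± 0.14, adjusted p = 0.000174, limma). Rpl14 rose from 110 and 127 to 245 and 276 CPM (1.13 ± 0.11, adjusted p = 9.32e-05, limma).

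The 2 genes that moved least in WT were Rps4l and Rps2. Rps4l, at 3.67 and 3.77 CPM basal and 3.35 and 3.13 CPM after RANKL, had the only negative log2 difference, -0.15 ± 0.09 (adjusted p = 0.190, limma; with TMM factors it was called lower, adjusted p = 0.0230). Rps2, a small subunit protein at the mRNA entry site, was at 119 and 100 CPM basal and 126 and 116 CPM after RANKL, with overlapping groups. Its log2 difference was 0.14 ± 0.13 (adjusted p = 0.364, limma), and it was -0.06 with TMM factors. With the block Rps2 passed the threshold (adjusted p = 0.00241), and with the block and TMM factors it did not (0.146).

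These genes were also higher after RANKL in Mir182ΔM/ΔM cells. The log2 differences here are between Mir182ΔM/ΔM libraries, and the spread was estimated over all 8 libraries of the experiment. Here 37 of 79 rose and 0 fell (30.4% and 26.4% of all genes, limma), and with the replicate block 76 rose and 1 fell (42.7% and 36.3%). The median log2 difference was 0.49 over the 79 genes and 0.05 over all genes, and 0.45 against 0.01 with TMM factors, which left 34 higher and 0 lower (28.0% and 29.1%). The counts by group were 19 of 40 large subunit, 14 of 30 small subunit, 2 of 3 stalk genes, 1 of 5 paralogs and Rpl37rt.

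Rpl14 was again among the largest increases, from 108 and 119 CPM to 186 and 214 CPM (0.81 ± 0.11, adjusted p = 0.000594, limma). Rpl21, the gene with the lowest level per length, went from 3.03 and 3.28 to 5.55 and 6.57 CPM (0.76 ± 0.12, adjusted p = 0.00120). Rps6 went from 82.7 and 78.4 to 140 and 128 CPM (0.73 ± 0.11, adjusted p = 0.000956). Rps2 rose in these cells, from 107 and 93.4 CPM to 176 and 144 CPM, with a log2 difference of 0.67 ± 0.13 (adjusted p = 0.00373). Rpl22l1, the paralog of Rpl22, went the other way, from 12.8 and 27.2 to 8.70 and 20.0 CPM, lower within each replicate number. Its log2 difference of -0.46 ± 0.59 did not pass the threshold (adjusted p = 0.528), and with the block it was the gene that fell (adjusted p = 3.04e-06). Rpl10, a large subunit protein near the peptidyl transferase center, stayed between 175 and 218 CPM in these 4 libraries (0.02 ± 0.14, adjusted p = 0.911).

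**Figure D2:**
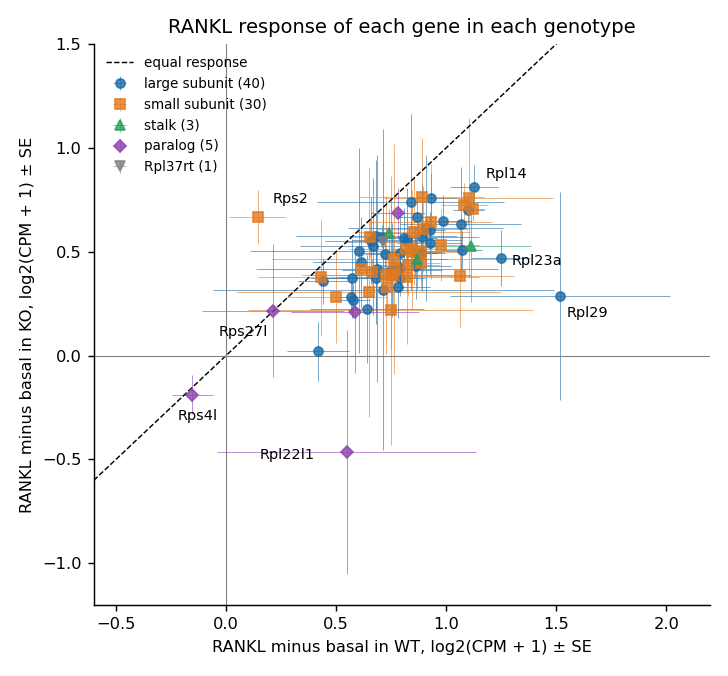
Log2 difference between RANKL and basal, on the log2(CPM + 1) scale with its standard error, for each of the 79 genes in WT (horizontal axis) and in Mir182ΔM/ΔM (vertical axis, KO), with the dashed line marking an equal response. Most genes lie to the right of the line, Rps2 lies to its left, and Rpl22l1 is below 0 in Mir182ΔM/ΔM.

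The difference between the RANKL responses was tested by the genotype by RANKL interaction. The response was smaller in Mir182ΔM/ΔM for 8 of 79 genes and larger for 0 (17.1% and 7.44% of all genes, limma), with 17 of the 79 at an unadjusted p under 0.05. With any one of the 8 libraries left out, 2 to 6 were smaller, the fewest without WT RANKL replicate 2 or Mir182ΔM/ΔM RANKL replicate 1. With TMM factors 0 were smaller and 1, Rps2, was larger (11.0% and 10.5% of all genes), and edgeR on the recovered reads also gave 0 and 1 (8.82% and 8.98%). With the replicate block 65 were smaller and 1 larger (42.8% and 16.1%), and with the block and TMM factors 43 and 2 (25.2% and 26.6%). The median difference of responses was -0.32 over the 79 genes against -0.15 over all genes, and -0.16 against 0.00 with TMM factors, so the number of smaller responses depended on the scaling. Among the 8 genes were Rpl23a, Rpl27a, Rps16, Rpl5, Rpl4, Rpl13a and Rps25.

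Rpl23a reached 57.6 and 57.5 CPM after RANKL in Mir182ΔM/ΔM from 48.2 and 35.3 basal, and the difference of the responses was -0.78 ± 0.19 (adjusted p = 0.0247, limma). Rpl27a went from 85.0 and 98.3 to 188 and 199 CPM in WT and from 82.2 and 90.6 to 121 and 125 CPM in Mir182ΔM/ΔM (-0.56 ± 0.13, adjusted p = 0.0174). Rps16 went from 88.6 and 102 to 168 and 186 CPM in WT and from 92.0 and 89.96 to 123 and 125 CPM in Mir182ΔM/ΔM (-0.44 ± 0.12, adjusted p = 0.0389). Each of these 3 lost its call with TMM factors, with adjusted p = 0.0581, 0.0764 and 0.182. Rps2 was the gene with the opposite sign, 0.52 ± 0.18 (adjusted p = 0.0821, and 0.0345 with TMM factors). All of these values use the WT libraries after RANKL, whose Lyz2 and Ifi202b differed from WT basal.

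In basal cells, Mir182ΔM/ΔM and WT differed little at the ribosomal protein genes. Of 79 genes, 0 were higher and 1 was lower (2.71% and 1.10% of all genes, limma), and 6 had an unadjusted p under 0.05. With all libraries, 73 of 79 log2 differences were below 0, with a median of -0.14 against 0.01 over all genes. Without WT basal replicate 2, 40 of 79 were below 0 with a median of -0.0024, and without Mir182ΔM/ΔM basal replicate 1, 48 were, with a median of -0.0609. Leaving out 1 library also leaves the replicate numbers unbalanced between the groups. Within replicate 1 alone the median was -0.12, and within replicate 2 alone it was -0.16. In both replicates 71 of the 79 genes were below 0. With TMM factors 0 were higher and 2 lower (2.50% and 1.21%), and with the replicate block 54 were lower and 0 higher (12.7% and 18.6%). The gene called without the block was Rps4l, at 3.67 and 3.77 CPM in WT and 2.07 and 2.28 CPM in Mir182ΔM/ΔM (-0.57 ± 0.09, adjusted p = 0.0225), and it was not called without any one of these 4 libraries (0.115 to 0.174). Rps13, a small subunit protein, was at 84.1 and 92.0 CPM in WT and 64.3 and 72.1 CPM in Mir182ΔM/ΔM, without overlap (-0.36 ± 0.10, adjusted p = 0.104, and 1.91e-07 with the block). The positive log2 differences were small, the highest being Rpl36al at 0.10 ± 0.29, Rplp2 at 0.08 ± 0.14, Rpl23a at 0.05 ± 0.14 and Rpl7l1 at 0.03 ± 0.12, and Rps27l at 0.01 ± 0.32, with adjusted p from 0.887 to 0.997.

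After RANKL, Mir182ΔM/ΔM cells had lower levels than WT cells. Of the 79 genes, 36 were lower and 1 was higher (30.9% and 14.3% of all genes, limma), or 76 and 1 with the replicate block (49.7% and 23.4%). Without WT RANKL replicate 2 the median log2 difference was -0.39 over the 79 genes and -0.14 over all genes. Without Mir182ΔM/ΔM RANKL replicate 1 these medians were -0.38 and -0.14. With TMM factors 21 were lower and 1 higher (20.5% and 20.6%), and with the block and TMM factors 71 and 2 (34.9% and 34.7%). The median log2 difference was -0.47 over the 79 genes and -0.14 over all genes, and -0.32 against -0.01 with TMM factors. Lower genes were 19 of 40 of the large subunit, 15 of 30 of the small subunit, 1 of 3 of the stalk and 1 of 5 paralogs. The osteoclast markers moved in the same comparison, from 10549 to 10762 CPM in WT to 3155 to 3183 CPM in Mir182ΔM/ΔM, and their part in this result was not tested. Lyz2 was at 4117 and 4288 CPM in these WT libraries and at 24.0 and 22.5 CPM in Mir182ΔM/ΔM after RANKL. Ifi202b was at 1.12 and 0.972 CPM in these WT libraries and at 152 and 143 CPM in Mir182ΔM/ΔM after RANKL. That difference cannot be told apart from genotype here.

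The lowest log2 difference was that of Rpl29, at 16.6 and 32.3 CPM in WT and 6.77 and 10.7 CPM in Mir182ΔM/ΔM, without overlap, and it was not called (-1.34 ± 0.50, adjusted p = 0.0649, limma, and 3.53e-10 with the block). Among called genes without overlap, the largest decreases were in Rps7, Rpl23a and Rpl27a. Rps7, a small subunit protein that also binds Mdm2, was at 264 and 385 CPM in WT and 150 and 209 CPM in Mir182ΔM/ΔM after RANKL (-0.85 ± 0.25, adjusted p = 0.0284, limma). Rps7 was not called with TMM factors (adjusted p = 0.0635), with edgeR on the recovered reads (0.0599), without WT RANKL replicate 2 (0.143) or without Mir182ΔM/ΔM RANKL replicate 1 (0.152). Rpl23a differed by -0.73 ± 0.14 (adjusted p = 0.00437) and Rpl27a by -0.65 ± 0.09 (adjusted p = 0.00111). Rpl5, which with Rpl11 and 5S rRNA forms the particle that can bind Mdm2, was at 257 and 257 CPM in WT and 171 and 167 CPM in Mir182ΔM/ΔM (-0.60 ± 0.06, adjusted p = 0.000229). Rpl11 was at 206 and 270 CPM in WT and 159 and 228 CPM in Mir182ΔM/ΔM, with overlapping groups (-0.30 ± 0.22, adjusted p = 0.296, and 1.43e-06 with the block). Rps2 was the gene that was higher in Mir182ΔM/ΔM, at 176 and 144 CPM against 126 and 116 CPM (0.40 ± 0.13, adjusted p = 0.0424). It was not called without a filter (0.0609), without WT RANKL replicate 1 (0.0812) or 2 (0.169), or without Mir182ΔM/ΔM RANKL replicate 1 (0.216). The paralog called lower was Rps4l (-0.61 ± 0.09, adjusted p = 0.00182), and Rps27l had a log2 difference of 0.01 ± 0.32 (adjusted p = 0.976).

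The WT libraries after RANKL were also set beside the Control libraries, which matched them in Lyz2 and Ifi202b but came from the other experiment and had no RANKL. The log2 difference had a median of 0.60 over the 79 genes and 0.06 over all 11691 genes, and it was above 0 in 78 of the 79, the exception being Rps27l at -0.10. Groups did not overlap, with WT after RANKL higher, in 62 of 79 genes, against 40.9% of all genes. Control and WT basal also differed in share, at 1.38% ± 0.109 and 1.22% ± 0.0864 (SD, n = 2). No test was run across experiments.

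Mir182mTg and Control cells had nearly the same levels of most ribosomal protein genes. edgeR called 0 of the 79 in either direction (0.0993% of 12081 genes higher, 0.157% lower), with 4 of the 79 at an unadjusted p under 0.05. DESeq2 called 2 lower and 0 higher (0.421% and 0.358% of all genes), limma on log2(CPM + 1) 1 lower and 0 higher (0.215% and 0.197%), and edgeR with the replicate block 13 lower and 1 higher (8.15% and 6.94% of all genes). The median log2 difference was -0.04 over the 79 genes and -0.0016 over all genes.

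Rps2 had the largest difference. It was at 86.2 and 75.0 CPM in Control and at 19.4 and 27.9 CPM in Mir182mTg, a clear gap. The libraries of the loss of function experiment ranged from 93.4 to 176 CPM, above both the Control and the Mir182mTg libraries. The log2 difference was -1.78 ± 0.19 (adjusted p = 0.0520, edgeR) and lay at -2.10 within replicate 1 and -1.40 within replicate 2. It passed the threshold in DESeq2 (adjusted p = 1.54e-20), in limma (0.0462) and with the block (3.76e-09). Rps2 lies at chr17:24718116-24721929 (plus strand, GRCm38), and 43.0% of its 50-base words occur in transcripts of 72 other genes, so reads could be split among copies.

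Rps3a1, a small subunit protein of the mRNA exit side, was at 106 and 164 CPM in Control and 68.8 and 86.9 CPM in Mir182mTg, without overlap. Its log2 difference of -0.81 ± 0.23 did not pass the threshold in edgeR (adjusted p = 0.478), but did in DESeq2 (0.00305) and with the block (4.05e-08). Rps3a1 lies at chr3:86137940-86142702 (minus strand, GRCm38). Rpl22l1 was at 13.5 and 29.7 CPM in Control and 9.89 and 21.4 CPM in Mir182mTg, lower within each replicate number (-0.48 ± 0.49, not called by edgeR, adjusted p = 0.000169 with the block).

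Among the genes that went against most others, Rps4l was at 2.46 and 2.23 CPM in Control and 3.36 and 3.37 CPM in Mir182mTg (0.51 ± 0.17, adjusted p = 0.558, edgeR). Rps13 was at 84.7 and 88.5 CPM in Control and 96.2 and 108 CPM in Mir182mTg, without overlap (0.23 ± 0.09, adjusted p = 0.693), and was the gene called higher with the block (0.000570). Rpl41, Rps28 and Rpl28 had log2 differences of 0.10, each with a standard error of 0.23 or more. Of the 5 genes with a seed match in the 3′ UTR, Rps20 had a log2 difference of -0.11 ± 0.07 and was called lower with the block (0.0232). The other 4 had log2 differences from -0.08 to 0.05 and were not called.

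**Figure D3:**
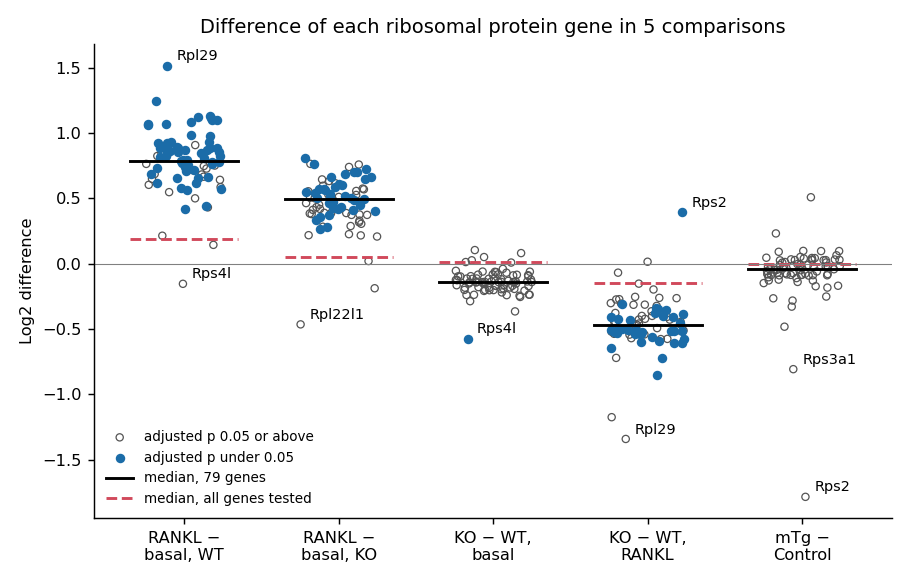
Log2 difference of each of the 79 genes in 5 comparisons (log2(CPM + 1) scale from limma for the first 4, edgeR log2 fold change for mTg minus Control), filled where the adjusted p was under 0.05, with the median of the 79 genes (black) and of all genes tested (red, dashed). The medians of the 79 genes were 0.79, 0.49, -0.14, -0.47 and -0.04 from left to right, and Rps2 lay at -1.78 in mTg minus Control.

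**Figure D4:**
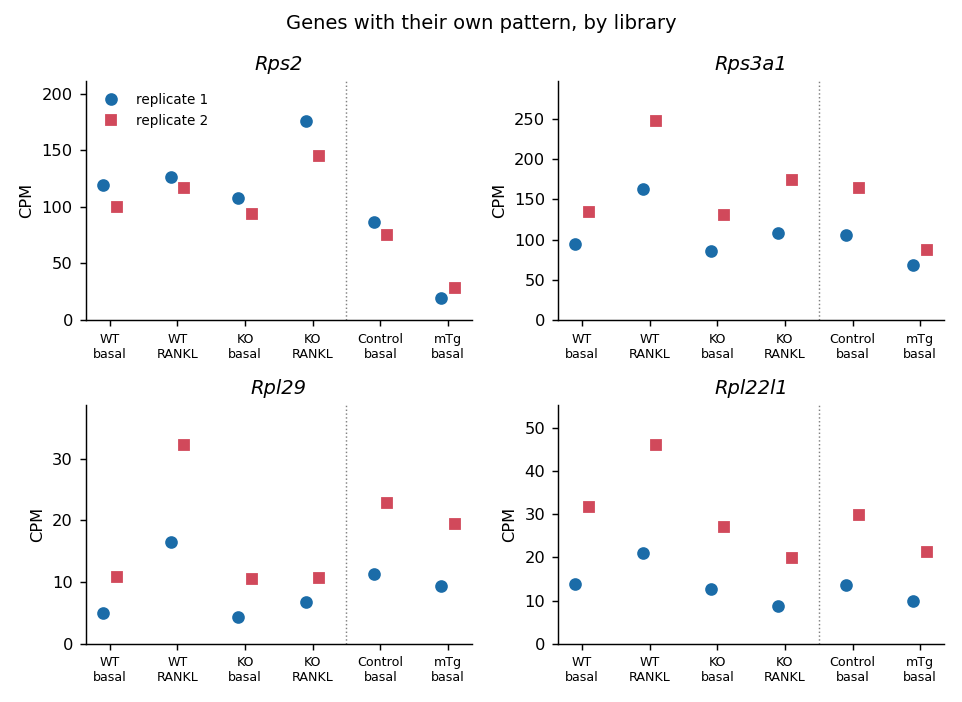
CPM of Rps2, Rps3a1, Rpl29 and Rpl22l1 in the 12 libraries, with replicate 1 as circles and replicate 2 as squares. Rps2 was at 19.4 and 27.9 CPM in Mir182mTg and at 75.0 CPM or more in every other library.

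Paralogs were compared with the genes they resemble. Rpl22, an RNA-binding large subunit protein, rose after RANKL in WT from 117 and 125 to 207 and 237 CPM (0.87 ± 0.09) and in Mir182ΔM/ΔM from 108 and 111 to 163 and 186 CPM (0.66 ± 0.09, adjusted p = 0.000176 and 0.000794, limma). Rpl22l1, at 8.70 to 46.2 CPM over all libraries, rose in WT with the block only (adjusted p = 2.68e-07, and 0.446 without it) and was 1.17 ± 0.59 on the log2 scale lower in Mir182ΔM/ΔM than in WT after RANKL (adjusted p = 0.147, and 2.54e-12 with the block). Rps27l, the only member of its pair with reads at the level rule, ranged from 43.1 to 83.3 CPM over the 12 libraries with log2 differences of 0.21 and 0.22 after RANKL, neither of which passed the threshold (adjusted p = 0.586 and 0.592, limma, 0.000813 and 0.000783 with the block, and 0.900 and 0.00589 with the block and TMM factors). Rps4x, the X-linked gene, went from 162 and 261 to 280 and 429 CPM in WT without overlap (0.75 ± 0.36, adjusted p = 0.109, and 2.50e-13 with the block), whereas Rps4l stayed between 1.73 and 3.77 CPM in all libraries. Rpl7 (0.68 ± 0.22, adjusted p = 0.0299) and Rpl7l1 (0.78 ± 0.12, adjusted p = 0.00116), a protein of ribosome assembly, both rose in WT. In Mir182ΔM/ΔM against WT after RANKL, Rpl7l1 differed by -0.07 ± 0.12 (adjusted p = 0.679) and Rpl7 by -0.45 ± 0.22 (adjusted p = 0.144). Rpl36a rose from 52.2 and 64.4 to 103 and 119 CPM in WT (0.92 ± 0.15, adjusted p = 0.00123), and Rpl36al, at 17.9 and 27.8 CPM basal, reached 28.5 and 40.5 CPM (0.59 ± 0.29, adjusted p = 0.117).

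The remaining genes named by rule followed the majority. In WT after RANKL, Rpl3, which shapes the peptidyl transferase center, rose by 0.79 ± 0.11 on the log2 scale, Rpl13a by 0.88 ± 0.07, Rps3 by 0.82 ± 0.15, Rpsa, the laminin receptor homologue, by 0.98 ± 0.17, Rps19, which is mutated in Diamond-Blackfan anemia, by 0.76 ± 0.19 and Rpl38 by 0.44 ± 0.11, with adjusted p from 4.12e-05 to 0.0115 (limma). Rplp1 rose from 451 and 415 to 747 and 697 CPM (0.74 ± 0.12, adjusted p = 0.00125) and Rplp2 from 152 and 135 to 274 and 250 CPM (0.87 ± 0.14, adjusted p = 0.00139). Rpl39, from 21.1 and 62.2 to 36.6 and 98.9 CPM, and Rpl41, from 186 and 94.4 to 267 and 153 CPM, were higher within each replicate number and were called only with the block (1.39e-10 and 6.62e-12). Their values without the block were 0.71 ± 0.77 and 0.60 ± 0.49.

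Other genes of ribosome production were read from lists of textbook members. After RANKL, 40.6% of all genes rose in WT and 30.4% in Mir182ΔM/ΔM, or 52.8% and 42.7% with the block. Ribosome assembly factors rose in 38 of 39 tested genes in WT and in 38 of 39 in Mir182ΔM/ΔM, with median log2 differences of 1.28 and 1.19, and in 38 and 39 with the block. Dkc1, the pseudouridine synthase of rRNA, went from 11.8 and 10.5 to 72.9 and 69.5 CPM in WT and from 16.4 and 16.2 to 86.2 and 83.2 CPM in Mir182ΔM/ΔM (2.57 and 2.31, adjusted p = 4.61e-07 and 1.01e-06, limma). Ppan in WT (2.02) and Gnl3, the nucleolar GTPase nucleostemin, in Mir182ΔM/ΔM (1.78) were the next. RNA polymerase I subunits and factors rose in 10 of 14 genes in each genotype (12 with the block), led by Polr1b (1.74 and 1.52) and Polr1a (1.49 and 1.44, adjusted p = 3.00e-06 and 4.88e-06), the polymerase's large subunits. Among 12 genes of mTOR signaling and translation control, 7 rose in WT, and 6 rose and 2 fell (Eif4ebp2 and Tsc1) in Mir182ΔM/ΔM (8 higher and 3 lower in each with the block), with Myc, a transcription factor that activates ribosome genes, first at 2.99 and 2.40 (adjusted p = 2.88e-05 and 0.000107) and Eif4ebp1, which inhibits cap-dependent translation, next at 1.10 and 0.97.

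In Mir182ΔM/ΔM against WT after RANKL, 14.3% of all genes were higher and 30.9% lower, or 23.4% and 49.7% with the block. Of 39 assembly factors, 6 were higher and 0 lower, and with the block 17 were higher and 4 lower. The assembly factors had a median log2 difference of 0.12, against -0.14 over all genes. The largest called without the block were Noc4l (0.30) and Tsr1 (0.29). Of 14 RNA polymerase I genes, 2 were higher (Polr1a and Cd3eap) and 1 lower (Polr1d), or 2 and 3 with the block. Without the block, the shares called higher in both lists were near that of all genes. Among the mTOR genes Eif4e, the cap-binding protein, was higher (0.45, adjusted p = 0.00294) and Eif4ebp2 lower (-0.34, adjusted p = 0.0397), and with the block 4 of 12 were higher and 5 lower. Other TOP mRNAs, mainly elongation and initiation factors, were lower in 9 of 15 genes and higher in 0 (13 and 1 with the block), with a median of -0.41, led by Eif4b (-0.70, adjusted p = 0.00146) and Eef1b2 (-0.65, adjusted p = 0.0215). In the RANKL responses, 13 of 15 of these rose in WT, led by Eef1g (1.36, adjusted p = 3.11e-06) and Pabpc1 (1.34), and 11 rose and 1 fell (Tpt1, -0.32) in Mir182ΔM/ΔM, with Pabpc1 (1.01) and Eef1g (0.92) first. In basal cells 3 assembly factors were higher in Mir182ΔM/ΔM, led by Dkc1 (0.51) and Nop56 (0.43), as was Polr1a (0.43), and 0 of the other TOP mRNAs were called. With the block 26 assembly factors were higher and 0 lower, and 2 of the TOP mRNAs were higher and 7 lower. Of all genes, 2.71% were higher and 1.10% lower in basal cells, or 18.6% and 12.7% with the block. The interaction called 4 of the 15 TOP mRNAs as smaller responses, led by Eif3f (-0.48) and Eef2 (-0.46), and 0 of the assembly, polymerase I and mTOR lists. With the block, 14 of the TOP mRNAs had smaller responses, as did 16 assembly factors (3 larger), 4 polymerase I genes (1 larger) and 4 mTOR genes (3 larger). Smaller responses were called in 17.1% of all genes and larger in 7.44%, or 42.8% and 16.1% with the block. Fau and Gnb2l1, ribosomal proteins under other symbols, rose in WT (Gnb2l1 by 0.84). In Mir182ΔM/ΔM Fau rose (0.46), and Fau was lower in Mir182ΔM/ΔM after RANKL (-0.34). In Mir182mTg against Control 0 genes of these lists were called by edgeR, and with the replicate block between 0 and 5 of each list were.

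The 77 genes of the mitochondrial ribosome, a list added after the data were seen, rose in 57 genes in WT and 48 in Mir182ΔM/ΔM, where 40.6% and 30.4% of all genes rose. With the block 70 rose in WT, and 65 rose and 3 fell in Mir182ΔM/ΔM. Their share of reads changed 1.65-fold and 1.35-fold, against 1.77-fold and 1.42-fold for the ribosomal protein genes. Their share in WT after RANKL was 1.23-fold that in Control. In Mir182ΔM/ΔM against WT after RANKL their share was 0.849-fold, against 0.723-fold for the ribosomal protein genes and 1.07-fold for the assembly factors. Of the 77 genes, 21 were lower and 2 higher, where 30.9% of all genes were lower and 14.3% higher. The share called lower was thus below that of all genes. With the block 49 were lower and 4 higher (49.7% and 23.4% of all genes). Their median log2 difference was -0.21, against -0.14 over all genes. The difference between lists was not tested.

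**Figure D5:**
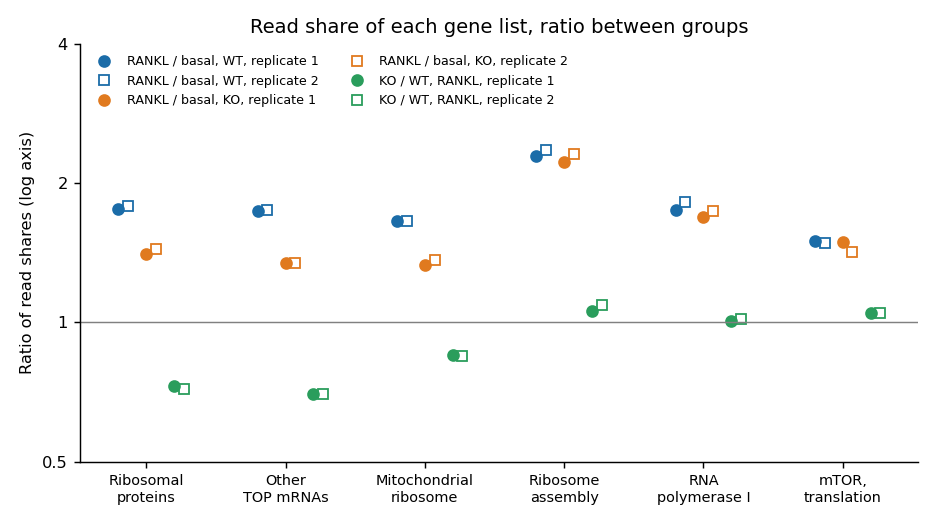
Ratio of the share of reads between groups, on a log axis, for the ribosomal protein genes and 5 other gene lists, in replicate 1 (filled circles) and replicate 2 (open squares). For Mir182ΔM/ΔM over WT after RANKL (green), the ratio was 0.731 and 0.716 for ribosomal protein genes and 1.06 and 1.09 for ribosome assembly.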

How the data were processed

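The protocol gives poly-A+ RNA for all libraries, although replicate 2 is labelled total RNA. For the loss of function libraries the authors deposited CPM, computed with edgeR from HT-seq counts on mm10, and for the gain of function libraries the deposited values are raw read counts. The labels name TopHat and Cufflinks for replicate 1 and HISAT2, HTSeq and edgeR for replicate 2. The replicate 1 files also hold deposited RPKM, which gave gene lengths. All CPM values were whole multiples of 1 read (100% within 0.01 read), so reads were recovered for an alternative test.

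Groups came from the labels. Counts were converted to CPM by library totals. CPM were tested as log2(CPM + 1) for genes reaching 1 CPM in 2 or more of the 8 libraries, with limma 3.58.1 (trend, 4 groups), and counts with edgeR 4.0.16 (TMM, filterByExpr, quasi-likelihood). Tests were two-sided, with Benjamini-Hochberg adjustment over all genes and a threshold of 0.05. A fold change on the log2(CPM + 1) scale understates that of low genes. The edgeR standard error is the absolute log2 fold change divided by the root of F. Scripts were tested on simulated data.

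Same-numbered replicates deviated together (correlations of the differences between replicates 0.686 to 0.754 over 15 pairs of conditions, 11794 genes), so a fit with the replicate number as a block is given. No library was a duplicate of its replicate (mean chi-square per gene 38.9 to 72.2). The study calls the replicates biological, and the sources used here do not tie them to single mice.

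The members and lists were chosen with earlier results of these data known. Besides a fixed set of members, named genes are, per comparison, the 3 largest called changes in each direction without overlap and at 5 CPM or more, up to 5 members against the majority, the 3 highest and lowest levels and replicate ratios, and the 2 largest called changes of each list. Rps15a, Rpl31, Rpl9 and Rps20 are named for a seed match, and Rps3a1 and the 8 interaction genes after their values were seen. Results of some genes that these rules name are not reported here. Alternatives were a pseudocount of 0.1, no filter, TMM factors, edgeR on recovered reads, DESeq2 1.42.0, limma for the counts, library totals, the block, and each library left out. The comparison with Control, the values of Rps2 and Rps3a1 within replicates and the 50-base words were added after seeing the data. Gene names that a spreadsheet had turned into dates (27, none of them members) were taken from a Control file with the same row order.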

Additional observations from a re-analysis of the deposited data

Results flagged for a closer look

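The response to RANKL differed between Mir182ΔM/ΔM and WT for 8 ribosomal protein genes by the interaction term (limma, adjusted p under 0.05), 8 of 79 being a smaller share than the 17.1% of all genes called in this direction. Among them, the differences of the responses, Mir182ΔM/ΔM minus WT on the log2 scale, were -0.78 for Rpl23a, -0.56 for Rpl27a, -0.44 for Rps16, -0.42 for Rpl5, -0.40 for Rpl4, -0.39 for Rpl13a and -0.35 for Rps25. Each was smaller within both replicate numbers. Without single libraries of the experiment, Rpl23a, Rpl27a and Rps16 also lost their calls in some cases (adjusted p up to 0.0751, 0.0658 and 0.127). With TMM factors none of the 8 was called (adjusted p 0.0581 to 0.187), and with the replicate block and TMM factors all 8 were (1.22e-05 to 0.00342). The WT libraries after RANKL, whose Lyz2 and Ifi202b differed from WT basal, are in all of them, and the part of that difference was not tested.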

How the results depend on the processing

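Counts are of the 79 genes. With the replicate block, 76 rose and 1 fell for RANKL in Mir182ΔM/ΔM, 54 were lower in basal Mir182ΔM/ΔM, 76 were lower after RANKL, 65 responses were smaller and 1 larger, and 13 were lower and 1 higher in Mir182mTg. The replicate block with TMM factors gave 76 higher and 1 lower for RANKL in WT (39.4% and 40.5% of all genes), 76 higher and 1 lower in Mir182ΔM/ΔM (39.4% and 39.2%), 58 lower and 0 higher in basal Mir182ΔM/ΔM (14.6% and 16.7%), 71 lower and 2 higher after RANKL, and 43 smaller and 2 larger responses. TMM factors gave 1 lower for RANKL in WT, 2 lower in basal Mir182ΔM/ΔM (Rps4l and Rpl37), 21 lower after RANKL, and 0 smaller and 1 larger response. edgeR on recovered reads gave 1, 1, 21, and 0 smaller and 1 larger response. Without a filter 0 were higher in Mir182ΔM/ΔM after RANKL and 1 was lower in Mir182mTg, where DESeq2 gave 2 and limma 1. A pseudocount of 0.1 and library totals without TMM kept every count within 1.5 times. All genes called without the block were called with it.

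With each library left out in turn, the counts ranged from 42 to 58 higher and 0 to 0 lower for RANKL in WT, 26 to 40 and 0 to 0 in Mir182ΔM/ΔM, 0 to 0 higher and 0 to 1 lower in basal Mir182ΔM/ΔM, 0 to 1 higher and 21 to 35 lower after RANKL, 0 to 0 larger and 2 to 6 smaller responses, and 0 to 0 higher and 1 to 2 lower in Mir182mTg. A lone sample was taken to vary like the other groups. These ranges are given without shares of all genes and show only how far the counts moved. 

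The median log2 difference of the 79 genes in Mir182mTg turned to 0.0666 without Control replicate 2 and 0.00836 without Mir182mTg replicate 1 (range over libraries left out -0.135 to 0.0666), and to 0.00892 within replicate 1. Rps2 for RANKL in WT turned to -0.0643 with TMM factors, with or without the block, and -0.0708 with edgeR. Rpl22l1 turned to 0.194 in Mir182mTg without Control replicate 2 (range -1.13 to 0.194), and for RANKL in Mir182ΔM/ΔM to 0.0521 without basal replicate 2 and 0.0922 without RANKL replicate 1 (range -1.02 to 0.0922). The cause was not tested. Without Rpl4, Rps3 and Rpl8, the shares of reads were 1.04% in WT basal, 1.80% in WT after RANKL, 0.933% and 1.31% in Mir182ΔM/ΔM, 1.15% in Control and 1.12% in Mir182mTg.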
